A study of Arabidopsis thaliana with 9 samples.

Results

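The class III peroxidases described here are 60 genes of Arabidopsis thaliana, out of 33560 gene identifiers in the expression table, chosen by a list of their locus identifiers. The list holds 60 of the 73 genes known in the family, and all 60 were found in the table. They were followed in root tips of seu-3, wox5-1 and Col-0 seedlings, with 3 RNA sequencing libraries of each genotype. A gene was tested when its mean over the 9 libraries was at least 1 FPKM (fragments per kilobase of transcript, scaled to the mapped fragments of the library). This left 45 members, and the other 15 never exceeded 1.42 FPKM in any library. Members are called by locus identifier, or by a symbol or synonym that RefSeq gives for it (PER4, RCI3, PRX72 and others).

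Class III peroxidases are secreted haem enzymes of plants, made by a large and tandemly duplicated gene family. They use hydrogen peroxide to oxidise phenolic compounds in the cell wall, which joins monolignols into lignin and cross-links wall proteins, and they can also form reactive oxygen species that loosen the wall. In the root they are known from the Casparian strip of the endodermis, from root hairs, from xylem and from the shift from dividing to elongating cells, where the transcription factor UPB1 (UPBEAT1) represses several of them.

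The seu-3 line carries an allele of SEU (SEUSS), a transcriptional co-regulator, and the wox5-1 line an allele of WOX5, a homeobox factor of the quiescent centre. Col-0 is the wild type. All seedlings were 5 days old, after 2 days in the cold, and grew on 1% sucrose with 16 h of light and 8 h of dark. The tissue is described as about 1 mm of root tip in the series text and about 3 mm in the extraction protocol. Whether libraries of a genotype came from separate plantings is not stated, so the spread among its 3 libraries may be technical. The p-values rest on that spread, pooled over the 3 genotypes and moderated by a trend over all tested genes. Leaving out a library of another genotype can therefore change a call. In a piece of whole tissue, fewer cells of a type and less RNA per cell cannot be told apart.

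Each library's FPKM summed to between 794809 and 839181. Judged by the size of the steps between low values, libraries held roughly 7700000 to 14300000 fragments. At that depth 1 fragment is worth about 0.0513 to 0.0952 FPKM for a peroxidase transcript of median length. SEU was 4.73, 5.22 and 4.19 FPKM in seu-3, 13.3, 13.3 and 13.0 FPKM in wox5-1 and 18.7, 13.3 and 13.2 FPKM in Col-0. For WOX5, seu-3 replicate 1 had 0.0884 FPKM, the other seu-3 libraries and all of wox5-1 were at 0, and Col-0 ranged between 0.301 and 0.524 FPKM. Some transcripts of other tissues were highest in wox5-1 replicate 3. AGP23 and AGP40, pollen arabinogalactan proteins, and LP1, a lipid transfer protein, were at 0 in all seu-3 and Col-0 libraries. In wox5-1 they were 3.34, 1.43 and 19.7 FPKM for AGP23, 2.74, 0.997 and 26.7 FPKM for AGP40 and 4.98, 1.32 and 21.9 FPKM for LP1. The leaf genes RBCS1A, at 28.6 FPKM, and CAB2, at 5.95 FPKM, were also highest in wox5-1 replicate 3, while the other 8 libraries held at most 6.10 FPKM of RBCS1A and 1.024 FPKM of CAB2. The other leaf genes, CAB1 and RCA, were highest in seu-3, and the 4 leaf genes summed to 46.5 to 62.0 FPKM in seu-3, 28.2 to 75.4 FPKM in wox5-1 and 33.6 to 47.5 FPKM in Col-0. The part of these tissues in the results was not tested. Where leaving out a single library changed a call of a member, that library is named with the adjusted p without it.

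Of the 60 members, 22 lie in 10 tandem clusters, with gaps of at most 10000 bases between neighbours. Over 1770 pairs the coding sequences had a median identity of 52.8%, and 6 pairs reached 90%. AT1G05240 and PRX2 (AT1G05250) have the same coding sequence, so their fragments there cannot be assigned to one of them. The other near-identical pairs were Prx37 and AT4G08780 (93.8%), AT4G37520 and AT4G37530 (92.4%), AT2G18140 and AT2G18150 (91.7%), AT2G38380 and AT2G38390 (90.6%), and AT3G49110 and PRXCB (90.4%). How the authors' counting divided shared fragments is not given in the sources used here. Besides, 11 members overlap another annotated gene, and strandedness is not stated, so their values may hold fragments of the neighbour. Among those named below these are AT1G30870, AT4G08780, AT4G16270, AT4G26010, AT4G33420, AT5G14130, AT5G40150, PER64, AT5G51890 and RHS19.

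The pair AT2G38380 and AT2G38390 is shown in sequence because its members moved in opposite directions in wox5-1. AT2G38380 lies at chr2:16076289-16078781, plus strand, and AT2G38390 at chr2:16079679-16081671, plus strand, 897 bases downstream on the same strand (RefSeq, TAIR10.1). The first 120 coding bases of each gene are given next, with the 10 positions at which they differ in capitals.
AT2G38380: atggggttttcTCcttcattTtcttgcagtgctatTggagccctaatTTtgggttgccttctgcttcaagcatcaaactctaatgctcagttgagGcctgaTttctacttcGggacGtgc
AT2G38390: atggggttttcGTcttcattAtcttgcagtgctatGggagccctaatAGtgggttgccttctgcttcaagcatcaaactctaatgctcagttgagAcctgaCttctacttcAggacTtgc
Of all 50-base stretches of one coding sequence, 1.30% occur in the other. The 250 bases before each annotated start follow, chr2:16076039-16076288 for AT2G38380 and chr2:16079429-16079678 for AT2G38390, both on the plus strand. Capitals mark the longest run the 2 regions share, 25 bases. It begins 68 bases before the start of AT2G38380 and 148 bases before that of AT2G38390.
AT2G38380: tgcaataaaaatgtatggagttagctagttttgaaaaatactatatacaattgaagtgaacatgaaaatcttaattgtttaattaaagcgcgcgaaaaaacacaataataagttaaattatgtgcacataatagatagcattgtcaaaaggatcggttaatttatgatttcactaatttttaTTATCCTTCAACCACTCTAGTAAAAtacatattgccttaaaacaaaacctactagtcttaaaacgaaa
AT2G38390: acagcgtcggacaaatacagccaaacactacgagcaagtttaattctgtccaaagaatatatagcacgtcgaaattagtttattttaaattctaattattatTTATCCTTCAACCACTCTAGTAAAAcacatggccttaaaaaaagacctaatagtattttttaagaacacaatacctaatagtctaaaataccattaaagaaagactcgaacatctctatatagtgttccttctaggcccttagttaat
Over the whole alignment of the 2 regions the identity was 40.1%, with gaps counted as differences. In windows of 250 bases before to 50 bases after the start, the G-box (CACGTG, which reads the same on both strands) occurred in 0 of 60 members and in 7.68% of 27443 protein-coding genes. For the root hair element RHE the pattern WHHDDTGNNN(N)KCACGWH, in ambiguity letters, was searched on both strands. This pattern was written for the search and may be stricter than the published consensus. The pattern occurred in 1 member, AT2G35380, and in 0.681% of those protein-coding genes. Other forms of the element would be missed, so the lack of a match does not show that a gene lacks it. A match is a description of letters and not evidence of a binding site.

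Peroxidases made up a sizeable share of the root tip transcript. The 60 members summed to 14274, 13072 and 13908 FPKM in seu-3, 9088, 11490 and 11254 FPKM in wox5-1 and 12824, 13242 and 13623 FPKM in Col-0. That is 1.71% ± 0.0681 of all FPKM in seu-3, 1.29% ± 0.180 in wox5-1 and 1.65% ± 0.0339 in Col-0 (SD, n = 3 each). All wox5-1 libraries lay below every Col-0 library, and the lowest was replicate 1, while seu-3 and Col-0 overlapped. With libraries scaled by median ratios the mean sums were 15896 FPKM in seu-3, 9748 FPKM in wox5-1 and 12471 FPKM in Col-0, and with quantile normalization 13411, 10414 and 13752 FPKM. The order of seu-3 and Col-0 therefore depended on the scaling. These sums are a description, without a test.

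**Figure D1:**
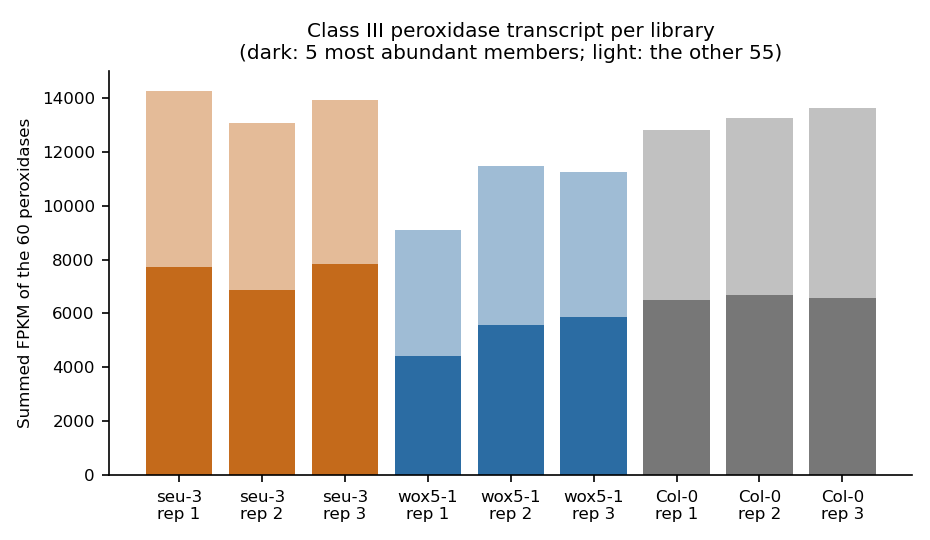
Summed FPKM of the 60 class III peroxidases in each library (vertical axis, from 0), with seu-3, wox5-1 and Col-0 libraries from left to right; the dark part is the 5 most abundant members and the light part the other 55. The wox5-1 bars, between 9088 and 11490 FPKM, are below all Col-0 bars, which start at 12824 FPKM.

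A few members held a large share of the transcript. AT5G17820 was the most abundant, ranking 28 among all identifiers, followed by AT3G01190, AT4G30170, AT2G18980 and AT5G64100. Together these 5 made up 54.3% ± 1.77 of the family's FPKM in seu-3, 49.7% ± 2.06 in wox5-1 and 49.8% ± 1.43 in Col-0. The next levels were those of the root hair gene RHS19, of AT1G30870 and of RCI3. At the other end, PRX2 and AT2G18150 were just inside the limit for testing, with no library above 2.32 FPKM, and AT5G64110 and PA2 (AT5G06720), a wound-responsive peroxidase, were just outside it, with no library above 1.42 FPKM. AT2G18140, AT3G03670 and AT5G58390 were listed at 0 in all 9 libraries. Between 5 and 11 members were listed at 0 per library.

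**Figure D2:**
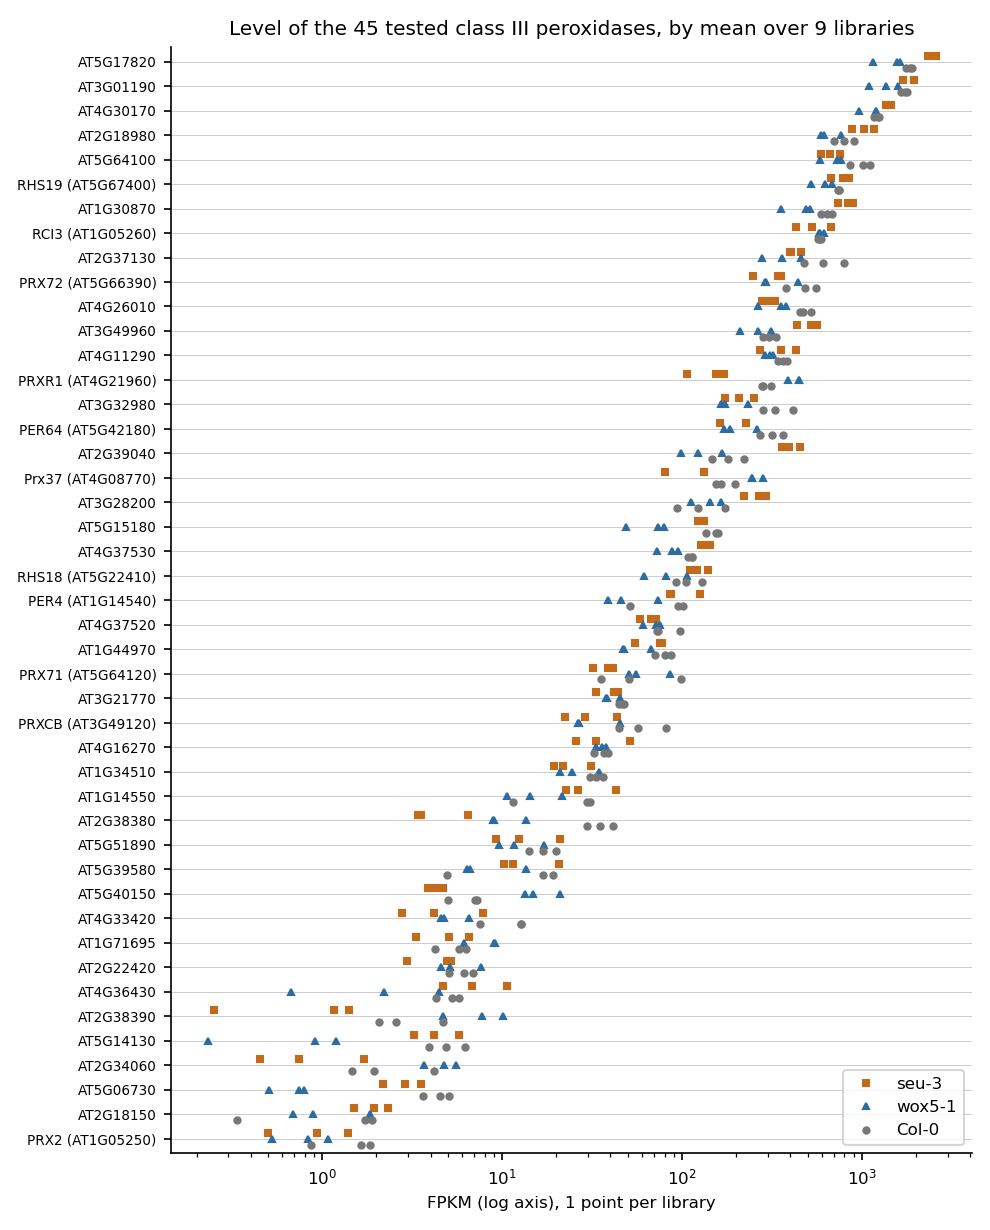
FPKM on a log axis of the 45 tested members, ordered by their mean over the 9 libraries, with 1 point per library (squares seu-3, triangles wox5-1, circles Col-0). PRX2 has the lowest mean, and AT5G17820 the highest values, up to 2572 FPKM in seu-3.

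All changes are given as differences of log2(FPKM + 1), a scale that understates those of genes with a low FPKM. They were fitted with limma over all 17062 tested genes and called at an adjusted p below 0.05. The 3 comparisons share libraries: both mutants are set against the same 3 Col-0 libraries. In wox5-1 against Col-0, 4 of the 45 members rose, 13 fell and 28 did not pass. The share called, 37.8%, compares with 27.3% of all tested genes. For rises it was 8.89% of the members against 13.7% of all genes, and for falls 28.9% against 13.5%. The members' median change was -0.40, and that of all genes 0.048. All 3 libraries of wox5-1 lay above or below all of Col-0 for 21 members (46.7%), and for 50.2% of all genes. Counts with a library left out or with quantile normalization, here and below, have no share of all genes beside them. Whether all genes lost calls alike was not tested. The count of 17 was 5 without Col-0 replicate 2, 7 without wox5-1 replicate 1 and 8 without Col-0 replicate 3. Between 13 and 18 were called without each of the other libraries. The rises numbered 1 without Col-0 replicate 2 or without wox5-1 replicate 2, when 4 and 16 members fell. They numbered 2 without replicates 1 or 3 of Col-0, without replicates 1 or 3 of wox5-1 or without seu-3 replicate 1, each left out singly.

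In seu-3 against Col-0, 4 members rose, 12 fell and 29 did not pass. The share called, 35.6%, compares with 40.8% of all genes. Rises made up 8.89% of the members and 6.66% of all genes, and falls 26.7% and 34.2%. The members' median change was -0.20, and that of all genes -0.24. All 3 seu-3 libraries lay above or below all of Col-0 for 23 members (51.1%), and for 56.3% of all genes. Scaling the libraries by median ratios raised the median of all genes by 0.25 to 0.0073. Then 8 members were higher and 3 lower, while 35.9% of all genes were called and 18.7% were higher. With quantile normalization 4 were higher and 5 lower. The count of 16 was 8 without seu-3 replicate 3 and 9 without replicates 2 or 3 of Col-0, each left out singly. The rises numbered 7 without wox5-1 replicate 1, and between 3 and 5 without each of the other libraries. Of the falls, those of AT2G38380, AT2G38390 and PRXR1 passed with median-ratio scaling, and those of AT3G32980, PRXCB, Prx37, AT4G26010, AT4G33420, AT5G06730, PER64, AT5G64100 and PRX72 did not (adjusted p from 0.0592 to 0.247).

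**Figure D3:**
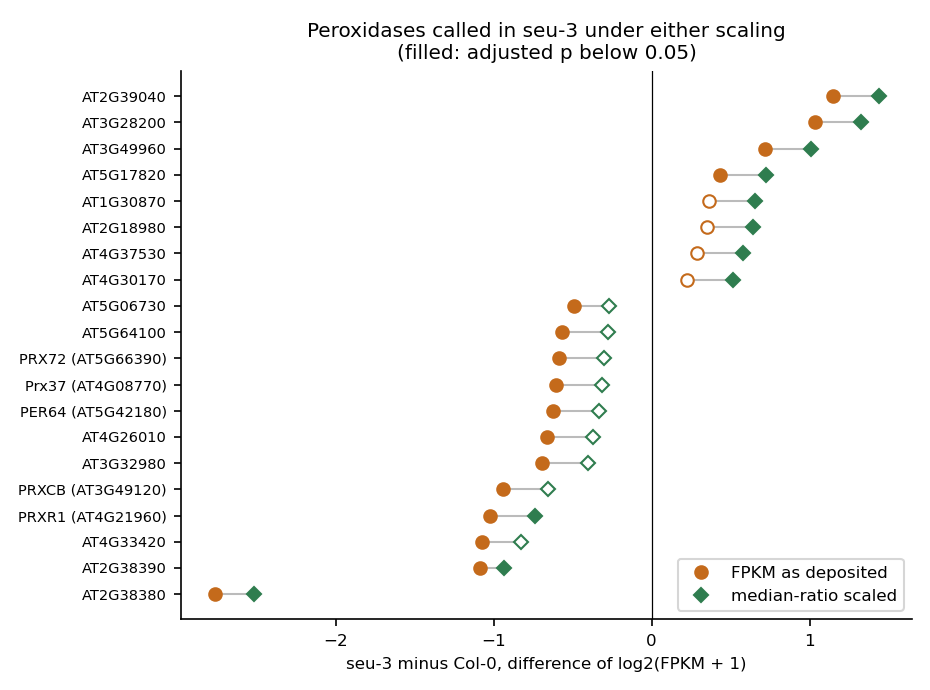
Differences of log2(FPKM + 1) in seu-3 minus Col-0 for the 20 members called as deposited (circles) or after median-ratio scaling (diamonds); filled symbols have an adjusted p below 0.05. All diamonds lie to the right of their circles, and 3 members remain filled on the negative side, with AT2G38380 farthest at -2.77 as deposited.

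Set directly against wox5-1, seu-3 had 16 members higher, 7 lower and 22 that did not pass. The share called, 51.1%, compares with 64.5% of all genes. The libraries of the mutants did not overlap for 23 members, and for 71.0% of all genes. Higher members made up 35.6%, against 19.9% of all genes, and lower members 15.6%, against 44.6%. The members' median was 0.15, and that of all genes -0.27. With median-ratio scaling, which raised the median of all genes by 0.29, 22 members were higher and 6 lower, while 64.6% of all genes were called and 33.0% were higher. Between 20 and 25 members were called without each single library.

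**Figure D4:**
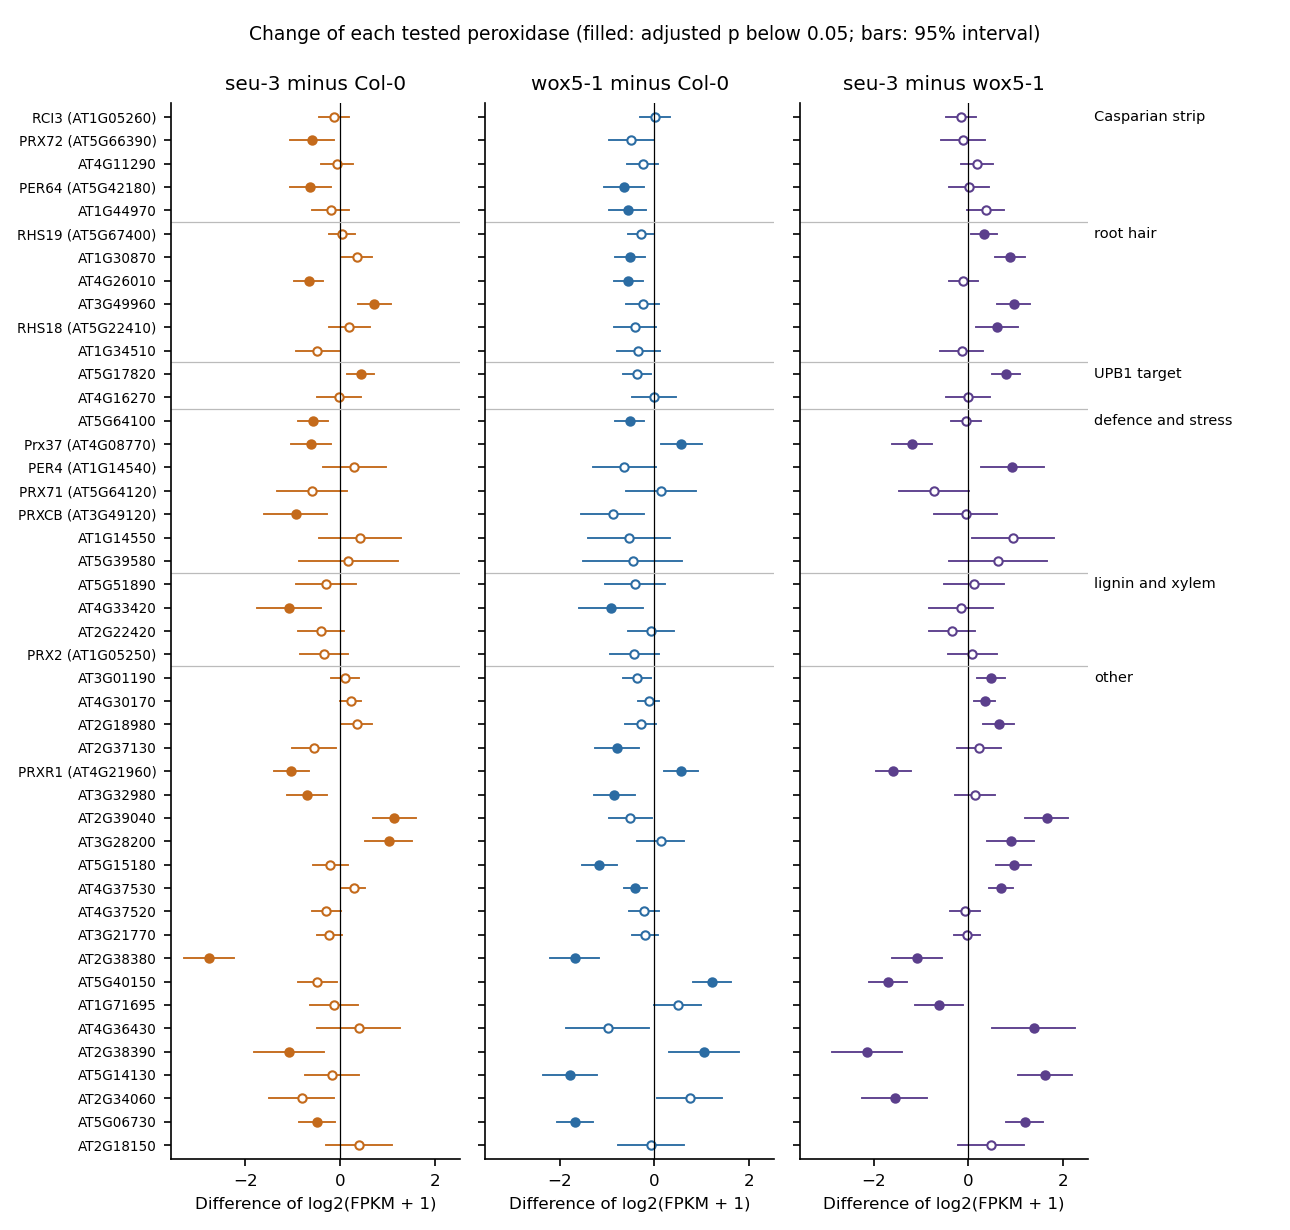
Difference of log2(FPKM + 1) with its 95% interval for each of the 45 tested members, in seu-3 minus Col-0 (left), wox5-1 minus Col-0 (middle) and seu-3 minus wox5-1 (right), grouped by role; filled points have an adjusted p below 0.05. Most middle points lie left of 0, as 36 of 45 members had a negative change in wox5-1, while 26 of 45 were positive in seu-3 minus wox5-1.

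Marker transcripts of other cell types moved over the same libraries. The 9 mitosis genes summed to 17.9 to 38.3 FPKM in seu-3, 120 to 149 FPKM in wox5-1 and 66.9 to 84.4 FPKM in Col-0. Root hair markers, 8 genes outside the family, summed to 3502 to 4303 FPKM in seu-3, 1991 to 2949 FPKM in wox5-1 and 3040 to 3161 FPKM in Col-0. The 5 root cap markers summed to 153 to 164 FPKM in seu-3, 71.0 to 91.5 FPKM in wox5-1 and 143 to 176 FPKM in Col-0. These sums hide markers that moved apart. In seu-3 against Col-0, 1 root cap marker was higher, 1 was lower and 3 did not pass. Of all tested genes 6.66% were higher and 34.2% were lower in that comparison. BFN1 was 15.6 to 21.2 FPKM in seu-3 and 8.10 to 8.85 FPKM in Col-0. SMB was 4.00 to 5.02 FPKM in seu-3 and 9.43 to 11.2 FPKM in Col-0. The root hair marker RSL2 was 12.8 to 14.0 FPKM in seu-3 and 31.6 to 43.5 FPKM in Col-0. No marker of these lists was at 0 in all libraries. Their part in the peroxidase changes was not tested.

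The tandem pair AT2G38380 and AT2G38390 gave the largest falls in seu-3. AT2G38380, which responds to zinc and salt, was 6.48, 3.54 and 3.39 FPKM in seu-3, 8.87, 13.5 and 9.03 FPKM in wox5-1 and 29.8, 35.0 and 41.5 FPKM in Col-0. Both mutants lay below every Col-0 library, 7.93-fold lower by means in seu-3 and 3.38-fold lower in wox5-1. Its change was -2.77 (SE 0.23, adjusted p = 0.000324) in seu-3 and -1.68 (SE 0.23, adjusted p = 0.00237) in wox5-1. All seu-3 libraries were also below wox5-1, with a difference of -1.09 (adjusted p = 0.00259). These 3 calls held in every alternative run, each left-out library included.

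Its neighbour AT2G38390, which responds to salt, was 1.41, 1.16 and 0.250 FPKM in seu-3, 4.70, 10.1 and 7.76 FPKM in wox5-1 and 2.08, 2.57 and 4.66 FPKM in Col-0. The order of the genotypes was thus wox5-1, Col-0, seu-3, without overlap. AT2G38390 rose in wox5-1 by 1.05 (SE 0.33, adjusted p = 0.0426) and fell in seu-3, with a change of -1.09 (SE 0.33, adjusted p = 0.0271). The closest libraries were 4.70 FPKM in wox5-1 and 4.66 FPKM in Col-0. By means it was 8.01-fold lower in seu-3 than in wox5-1, and the lowest seu-3 library, at 0.250 FPKM, rests on few fragments. Between the mutants the difference was -2.14 (SE 0.33, adjusted p = 0.000429), a call that held in every alternative run. AT2G38390 lost its call in wox5-1 without Col-0 replicates 1 or 2, seu-3 replicate 1 or wox5-1 replicates 2 or 3, each left out singly (adjusted p from 0.0521 to 0.122). AT2G38390 lost its call in seu-3 without Col-0 replicates 2 or 3 or seu-3 replicate 3, each left out singly (adjusted p from 0.0528 to 0.0971). In wox5-1 one member of the pair fell and the other rose, at a coding identity of 90.6%.

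**Figure D5:**
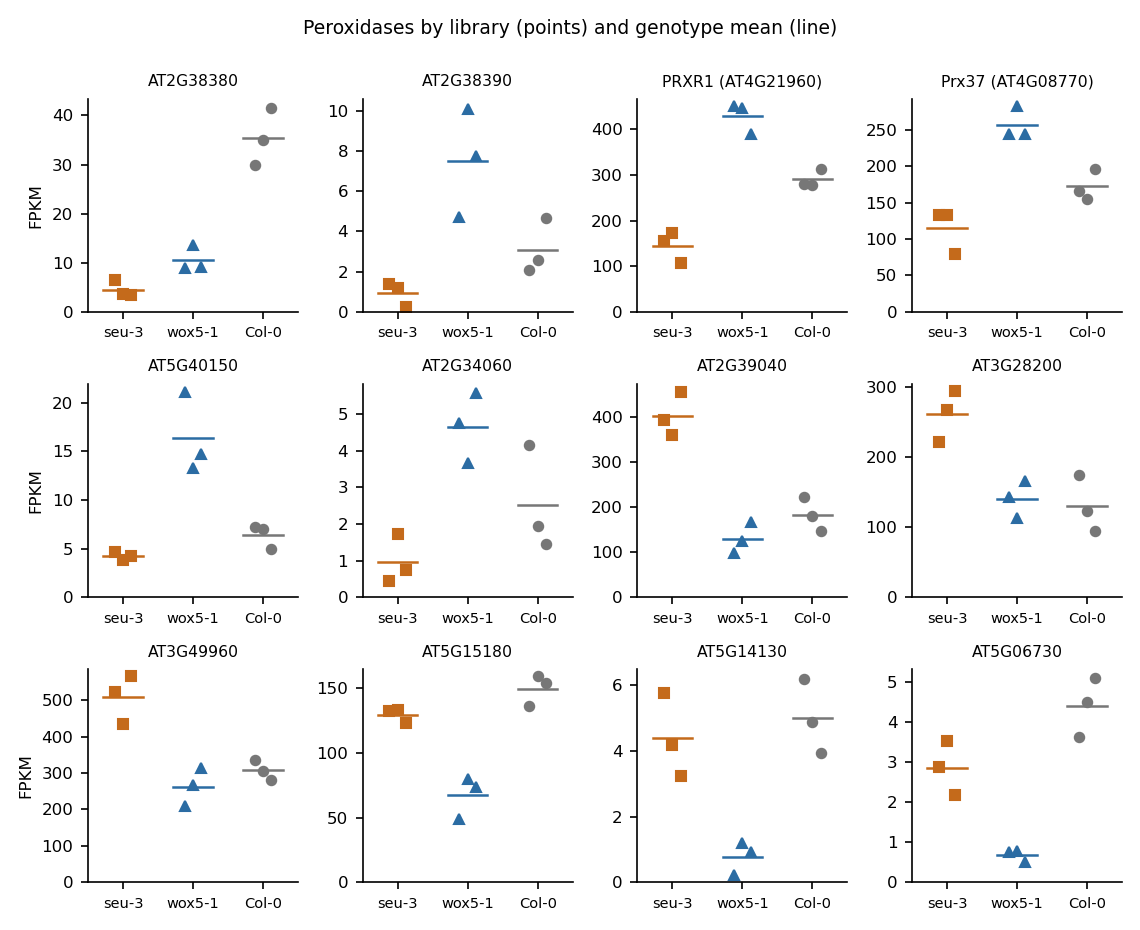
FPKM per library (points, linear axes from 0) and genotype mean (lines) for 12 members, with seu-3, wox5-1 and Col-0 from left to right in each panel. AT2G38390, PRXR1, Prx37, AT5G40150 and AT2G34060 have wox5-1 highest and seu-3 lowest, while AT2G38380 is highest in Col-0.

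PRXR1 and Prx37, both abundant, also moved in opposite directions. PRXR1 was 155, 172 and 107 FPKM in seu-3, 450.1, 446 and 389 FPKM in wox5-1 and 281, 277 and 313 FPKM in Col-0. No library overlapped with another genotype, and PRXR1 was 2.01-fold lower in seu-3 and 1.48-fold higher in wox5-1. Its change was -1.03 (SE 0.16, adjusted p = 0.00344) in seu-3, and 0.56 (SE 0.16, adjusted p = 0.0331) in wox5-1. In seu-3 against wox5-1 it was -1.58 (adjusted p = 9.82e-05), the smallest adjusted p among the members. Both calls that involve seu-3 held in every alternative run. PRXR1 lost its call in wox5-1 without Col-0 replicates 1, 2 or 3 or wox5-1 replicates 1 or 2, each left out singly (adjusted p from 0.0529 to 0.108).

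Prx37, a vascular peroxidase whose overexpression dwarfs plants, was 133, 133 and 80.0 FPKM in seu-3, 244, 283 and 244 FPKM in wox5-1 and 166, 155 and 196 FPKM in Col-0. It fell in seu-3, with a change of -0.61 (SE 0.19, adjusted p = 0.0295), and rose in wox5-1 by 0.58 (SE 0.19, adjusted p = 0.0483), again without overlap. Its near-identical neighbour AT4G08780 was at most 0.688 FPKM. Prx37 lost its call in seu-3 without Col-0 replicates 1 or 3 or seu-3 replicate 3, each left out singly (adjusted p from 0.0539 to 0.1005). Prx37 lost its call in wox5-1 without Col-0 replicates 1, 2 or 3, seu-3 replicate 1 or wox5-1 replicates 1, 2 or 3, each left out singly (adjusted p from 0.0556 to 0.145). Between the mutants the difference of -1.18 (adjusted p = 0.000510) held in every alternative run.

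AT5G40150 was the largest rise in wox5-1. It was 4.69, 3.87 and 4.27 FPKM in seu-3, 21.1, 13.3 and 14.8 FPKM in wox5-1 and 7.22, 7.03 and 5.00 FPKM in Col-0. It was 2.56-fold higher in wox5-1 than in Col-0, a change of 1.22 (SE 0.18, adjusted p = 0.00335). In seu-3 all libraries were below Col-0, but the change of -0.48 (adjusted p = 0.0607) did not pass. AT2G34060, at low levels, was 0.452, 1.72 and 0.746 FPKM in seu-3, 4.75, 3.66 and 5.57 FPKM in wox5-1 and 4.17, 1.93 and 1.46 FPKM in Col-0. Its changes against Col-0, -0.81 (adjusted p = 0.0592) in seu-3 and 0.75 (adjusted p = 0.0908) in wox5-1, did not pass, yet it was lower in seu-3 than in wox5-1, with a difference of -1.56 (adjusted p = 0.00165). AT2G34060 passed in seu-3 without Col-0 replicate 3 or seu-3 replicate 2, each left out singly (adjusted p from 0.0237 to 0.0437). AT2G34060 passed in wox5-1 without Col-0 replicate 1 (adjusted p = 0.0362). AT5G40150 passed in seu-3 without Col-0 replicate 3 or wox5-1 replicate 1, each left out singly (adjusted p from 0.0303 to 0.0376). For AT1G71695 the same comparison gave -0.62 (adjusted p = 0.0348), with overlapping libraries, and -0.34 (adjusted p = 0.237) with median-ratio scaling. AT1G71695 lost its call in seu-3 against wox5-1 without seu-3 replicates 1 or 2 or wox5-1 replicates 2 or 3, each left out singly (adjusted p from 0.0653 to 0.119). The difference between the mutants held for AT5G40150 and AT2G34060 in every alternative run, as did the wox5-1 call of AT5G40150.

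Peroxidases of the Casparian strip, the lignin ring of endodermal walls, form a group of 5. In wox5-1 2 of them fell and 3 did not pass, in seu-3 2 fell and 3 did not pass, and 0 of 5 passed between the mutants. Of all tested genes 13.5% fell in wox5-1, 34.2% fell in seu-3 and 64.5% passed between the mutants. PER64, which lignifies the strip, was 227, 228 and 163 FPKM in seu-3, 171, 262 and 186 FPKM in wox5-1 and 273, 315 and 363 FPKM in Col-0. It fell in both, with changes of -0.62 (SE 0.19, adjusted p = 0.0264) in seu-3 and -0.63 (SE 0.19, adjusted p = 0.0371) in wox5-1. The 3 libraries of each mutant were below all Col-0 libraries. PER64 lost its call in seu-3 without Col-0 replicates 2 or 3 or seu-3 replicate 3, each left out singly (adjusted p from 0.0666 to 0.0924). PER64 lost its call in wox5-1 without Col-0 replicates 2 or 3, seu-3 replicate 1 or wox5-1 replicates 1 or 3, each left out singly (adjusted p from 0.0515 to 0.135).

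PRX72 (AT5G66390), which acts in lignin formation, was 353, 340.3 and 248 FPKM in seu-3, 293, 444 and 288 FPKM in wox5-1 and 380.3, 483 and 556 FPKM in Col-0. It fell in seu-3, with -0.59 (SE 0.21, adjusted p = 0.0466), and its change in wox5-1, -0.48 (adjusted p = 0.105), did not pass. PRX72 lost its call in seu-3 without Col-0 replicates 2 or 3, seu-3 replicates 1, 2 or 3 or wox5-1 replicates 1 or 3, each left out singly (adjusted p from 0.0506 to 0.156). PRX72 passed in wox5-1 without wox5-1 replicate 2 (adjusted p = 0.0357). AT1G44970 was 75.7, 77.5 and 55.1 FPKM in seu-3, 47.3, 67.4 and 46.9 FPKM in wox5-1 and 70.5, 80.2 and 86.6 FPKM in Col-0. It fell in wox5-1, with -0.56 (SE 0.17, adjusted p = 0.0413), and its change in seu-3, -0.20 (adjusted p = 0.386), did not pass. AT1G44970 lost its call in wox5-1 without Col-0 replicates 1, 2 or 3, seu-3 replicate 1 or wox5-1 replicates 1 or 3, each left out singly (adjusted p from 0.0564 to 0.141). AT1G44970 passed in seu-3 against wox5-1 without seu-3 replicate 3 or wox5-1 replicate 2, each left out singly (adjusted p from 0.0183 to 0.0254).

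RCI3, induced by cold, was the most abundant member of the Casparian strip group and averaged 545 ± 123 FPKM in seu-3, 595 ± 20.02 FPKM in wox5-1 and 584 ± 13.3 FPKM in Col-0 (SD, n = 3 each). The 95% interval of its change was -0.44 to 0.19 in seu-3 and -0.29 to 0.34 in wox5-1. AT4G11290, also a UPB1 target, averaged 352 ± 79.3 FPKM in seu-3, 306 ± 17.2 FPKM in wox5-1 and 363 ± 23.0 FPKM in Col-0, and 0 of its 3 comparisons passed. RCI3 passed in seu-3 against wox5-1 without seu-3 replicate 2 (adjusted p = 0.0263). AT4G11290 passed in seu-3 against wox5-1 without seu-3 replicate 3 (adjusted p = 0.0282). Outside the family 8 Casparian strip markers were followed (CASP1 to CASP5, ESB1, MYB36 and SGN3). SGN3 was the only one to pass in wox5-1, lower by 0.59, and 0 passed in seu-3. Of all tested genes 27.3% passed in wox5-1 and 40.8% in seu-3. The 8 markers summed to 1505 to 2157 FPKM in seu-3, 1597 to 2551 FPKM in wox5-1 and 1860 to 3124 FPKM in Col-0. The part of this sum in the changes of the 5 peroxidases was not tested. Without any one of the Col-0 libraries, or without wox5-1 replicate 1, the number of these markers lower in wox5-1 was 0, without wox5-1 replicate 2 it was 3, and without seu-3 replicate 3 or with median-ratio scaling it was 2. In seu-3 the number lower was 2 without Col-0 replicate 1, and 3 were higher in seu-3 than in wox5-1 with median-ratio scaling.

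Of the 7 root hair peroxidases 6 were tested. Between the mutants 4 of them passed, where 64.5% of all tested genes did. AT3G49960, enriched in root hair cells, was 522, 435 and 567 FPKM in seu-3, 209, 266 and 313 FPKM in wox5-1 and 335, 304 and 282 FPKM in Col-0. Every seu-3 library was above all the others, 1.65-fold over Col-0 by means. The change was 0.72 (SE 0.15, adjusted p = 0.00720) in seu-3 and -0.24 (adjusted p = 0.249) in wox5-1, which did not pass. Between the mutants it was 0.96 (adjusted p = 0.000538).

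AT4G26010, a gene of root hair growth, moved otherwise: it was 330.4, 279 and 302 FPKM in seu-3, 265, 377 and 354 FPKM in wox5-1 and 451, 470.4 and 521 FPKM in Col-0. It fell in both mutants without overlap with Col-0, with changes of -0.66 (SE 0.14, adjusted p = 0.00636) in seu-3 and -0.55 (SE 0.14, adjusted p = 0.0215) in wox5-1. AT4G26010 lost its call in wox5-1 without Col-0 replicates 2 or 3, each left out singly (adjusted p from 0.0597 to 0.0641). AT1G30870 was 839.8, 735 and 892 FPKM in seu-3, 358, 487 and 512 FPKM in wox5-1 and 685, 641 and 591 FPKM in Col-0. It fell in wox5-1, with -0.51 (SE 0.14, adjusted p = 0.0294), while in seu-3 all libraries were above Col-0 but the change, 0.36 (adjusted p = 0.0667), did not pass. With median-ratio scaling it did, at 0.65 (adjusted p = 0.0128). AT1G30870 passed in seu-3 without wox5-1 replicate 1 (adjusted p = 0.0183). AT1G30870 lost its call in wox5-1 without Col-0 replicates 1 or 2 or wox5-1 replicate 1, each left out singly (adjusted p from 0.0727 to 0.0874). Between the mutants the difference was 0.87 (SE 0.14, adjusted p = 0.000552), which held in every alternative run.

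RHS19 (root hair specific 19) was 784, 669.7 and 848 FPKM in seu-3, 524, 687 and 624 FPKM in wox5-1 and 747, 733 and 748 FPKM in Col-0, and RHS18 was 122, 111 and 140.4 FPKM in seu-3, 61.5, 81.8 and 107 FPKM in wox5-1 and 129, 106 and 92.7 FPKM in Col-0. Against Col-0 the 4 changes of these genes ranged from -0.41 to 0.20 and did not pass. Set against wox5-1, seu-3 was higher by 0.33 (adjusted p = 0.0355) for RHS19 and by 0.60 (adjusted p = 0.0217) for RHS18. RHS19 lost its call in seu-3 against wox5-1 without Col-0 replicate 2, seu-3 replicates 1 or 3 or wox5-1 replicates 1 or 3, each left out singly (adjusted p from 0.0535 to 0.120). RHS18 lost its call in seu-3 against wox5-1 without seu-3 replicate 3 or wox5-1 replicate 1, each left out singly (adjusted p from 0.0720 to 0.0743). RHS18 passed in wox5-1 without wox5-1 replicate 3 (adjusted p = 0.0461). AT1G34510 averaged 24.1 ± 6.24 FPKM in seu-3, 26.6 ± 6.92 FPKM in wox5-1 and 33.4 ± 2.79 FPKM in Col-0 and passed in 0 of the 3 comparisons. AT1G34510 passed in seu-3 without seu-3 replicate 3 (adjusted p = 0.0303). AT1G05240, whose coding sequence is that of PRX2, was at most 0.102 FPKM and was not tested. In the root hair markers outside the family, 1 of 8 was lower in seu-3 (against 34.2% of all tested genes) and 4 of 8 in wox5-1 (against 13.5%). In seu-3 against wox5-1, 6 of 8 were higher (against 19.9%) and 1, RSL2, was lower (against 44.6%). The RSL2 call between the mutants did not pass with median-ratio scaling (adjusted p = 0.105), when 7 of 8 were higher. With median-ratio scaling 5 of the 8 were higher in seu-3 than in Col-0. The number lower in wox5-1 was 1 without Col-0 replicate 1 or Col-0 replicate 2, and 2 without wox5-1 replicate 1. The number higher in seu-3, 0 of 8, was 3 without wox5-1 replicate 1 and 1 without replicate 1 of Col-0 or without replicate 2 of either mutant.

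Among known targets of UPB1, AT5G17820 was 2572, 2346 and 2568 FPKM in seu-3, 1147, 1636 and 1564 FPKM in wox5-1 and 1769, 1911 and 1857 FPKM in Col-0. The genotypes did not overlap, with seu-3 above Col-0 and wox5-1 below it. It rose in seu-3 by 0.43 (SE 0.13, adjusted p = 0.0262), and the change in wox5-1, -0.37 (adjusted p = 0.0626), did not pass. AT5G17820 lost its call in seu-3 without Col-0 replicates 1, 2 or 3 or seu-3 replicates 1 or 3, each left out singly (adjusted p from 0.0572 to 0.0784). AT5G17820 passed in wox5-1 without wox5-1 replicate 2 (adjusted p = 0.0430). With quantile normalization the seu-3 call ended too (adjusted p = 0.895), and with median-ratio scaling it was 0.73 (adjusted p = 0.00641). Between the mutants it was 0.80 (adjusted p = 0.000590), or adjusted p = 0.0793 with quantile normalization. AT4G16270, another target, averaged 36.9 ± 13.3 FPKM in seu-3, 35.7 ± 2.16 FPKM in wox5-1 and 36.0 ± 3.10 FPKM in Col-0 (SD, n = 3 each), and its changes were -0.017 in seu-3 and -0.0089 in wox5-1, each with an SE of 0.21. UPB1 itself was 41.4, 33.3 and 50.3 FPKM in seu-3, 47.9, 56.8 and 77.6 FPKM in wox5-1 and 76.1, 53.2 and 55.2 FPKM in Col-0. Its changes, -0.55 in seu-3 (adjusted p = 0.0614) and -0.026 in wox5-1 (adjusted p = 0.933), did not pass. UPB1 was lower in seu-3 without seu-3 replicate 3 (adjusted p = 0.0475) or wox5-1 replicate 3 (adjusted p = 0.0418).

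The 4 other most abundant members had higher means in seu-3 than in Col-0, except AT5G64100. AT3G01190 was 1948, 1705 and 1962 FPKM in seu-3, 1099, 1368 and 1592 FPKM in wox5-1 and 1794, 1743 and 1645 FPKM in Col-0, and its changes against Col-0, 0.11 (adjusted p = 0.512) in seu-3 and -0.37 (adjusted p = 0.0630) in wox5-1, did not pass. AT4G30170 was 1431, 1369 and 1453 FPKM in seu-3, 967, 1200.2 and 1207 FPKM in wox5-1 and 1165, 1224 and 1249.7 FPKM in Col-0, and AT2G18980 was 1024, 878 and 1168 FPKM in seu-3, 613, 591 and 769 FPKM in wox5-1 and 909, 796 and 697 FPKM in Col-0. Neither passed against Col-0, with 0.22 (adjusted p = 0.101) and 0.35 (adjusted p = 0.0813) in seu-3. With median-ratio scaling both did, at 0.52 (adjusted p = 0.00924) and 0.64 (adjusted p = 0.0175). In seu-3 against wox5-1 the difference was 0.48 (adjusted p = 0.00983) for AT3G01190, 0.34 (adjusted p = 0.0144) for AT4G30170 and 0.64 (adjusted p = 0.00401) for AT2G18980. AT3G01190 passed in wox5-1 without wox5-1 replicate 3 (adjusted p = 0.0304). AT4G30170 passed in seu-3 without wox5-1 replicate 1 (adjusted p = 0.0297). AT2G18980 passed in seu-3 without seu-3 replicate 2 (adjusted p = 0.0423). With quantile normalization the differences between the mutants did not pass for AT3G01190 (adjusted p = 0.393) and AT4G30170 (adjusted p = 0.158).

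AT5G64100 fell in both mutants: it was 752, 589.8 and 667 FPKM in seu-3, 589, 765 and 725 FPKM in wox5-1 and 858, 1016 and 1106 FPKM in Col-0. Each library of the mutants was below every Col-0 library. The change was -0.57 (SE 0.14, adjusted p = 0.0117) in seu-3 and -0.52 (SE 0.14, adjusted p = 0.0268) in wox5-1. AT5G64100 lost its call in wox5-1 without Col-0 replicates 2 or 3 or wox5-1 replicate 1, each left out singly (adjusted p from 0.0750 to 0.0920).

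AT2G39040 and AT3G28200 were the largest rises in seu-3. AT2G39040 was 393, 359 and 455 FPKM in seu-3, 98.2, 123 and 167 FPKM in wox5-1 and 222, 179 and 147 FPKM in Col-0. In seu-3 it was 2.20-fold higher than in Col-0, at 1.15 (SE 0.20, adjusted p = 0.00457), while the change in wox5-1, -0.51 (adjusted p = 0.0869), did not pass. AT3G28200 was 221, 267 and 294 FPKM in seu-3, 143, 112 and 166 FPKM in wox5-1 and 174, 123 and 93.7 FPKM in Col-0. It was 2.01-fold higher in seu-3 than in Col-0, at 1.03 (SE 0.22, adjusted p = 0.00710), and wox5-1 overlapped with Col-0. Against wox5-1 the differences in seu-3 were 1.65 (adjusted p = 0.000165) for AT2G39040, the highest of all members, and 0.90 (adjusted p = 0.00561) for AT3G28200. AT2G39040 passed in wox5-1 without wox5-1 replicate 3 (adjusted p = 0.0346). The seu-3 calls of both genes, and of AT3G49960, held in every alternative run.

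Of the members that fell in wox5-1, AT5G14130, AT5G06730 and AT5G15180 had the largest changes besides AT2G38380. AT5G15180 was 133, 133 and 123 FPKM in seu-3, 49.1, 79.8 and 74.0 FPKM in wox5-1 and 136, 159 and 154 FPKM in Col-0. It was 2.21-fold lower in wox5-1 than in Col-0, at -1.16 (SE 0.16, adjusted p = 0.00250), while seu-3, also below each Col-0 library, had a change of -0.20 (adjusted p = 0.336) that did not pass. AT5G14130 was 5.77, 4.18 and 3.25 FPKM in seu-3, 0.230, 1.19 and 0.916 FPKM in wox5-1 and 6.19, 4.90 and 3.94 FPKM in Col-0, and in wox5-1 its change was -1.78 (SE 0.25, adjusted p = 0.00259). AT5G06730 was 2.89, 3.52 and 2.17 FPKM in seu-3, 0.746, 0.789 and 0.506 FPKM in wox5-1 and 3.62, 4.49 and 5.08 FPKM in Col-0, and in wox5-1 its change was -1.68 (SE 0.17, adjusted p = 0.000805). Both were low, and by means they were 6.43-fold and 6.46-fold lower in wox5-1. These wox5-1 calls held in every alternative run, and so did those in seu-3 against wox5-1, 0.96 for AT5G15180, 1.62 for AT5G14130 and 1.19 for AT5G06730. AT5G06730 also fell in seu-3, with -0.49 (SE 0.17, adjusted p = 0.0453). AT5G06730 lost its call in seu-3 without Col-0 replicates 2 or 3, seu-3 replicates 1 or 3 or wox5-1 replicates 1, 2 or 3, each left out singly (adjusted p from 0.0515 to 0.155).

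AT3G32980 fell in both mutants: it was 252, 206 and 174 FPKM in seu-3, 173, 234 and 165 FPKM in wox5-1 and 282, 328 and 416 FPKM in Col-0. All mutant libraries were below all Col-0 libraries. Its changes were -0.69 (SE 0.19, adjusted p = 0.0177) in seu-3 and -0.84 (SE 0.19, adjusted p = 0.0152) in wox5-1. AT3G32980 lost its call in seu-3 without Col-0 replicate 3 or seu-3 replicate 3, each left out singly (adjusted p from 0.0642 to 0.0644). AT3G32980 lost its call in wox5-1 without Col-0 replicate 2 or wox5-1 replicate 1, each left out singly (adjusted p from 0.0509 to 0.0598). AT2G37130, annotated to defence against fungi, was 461, 405 and 397 FPKM in seu-3, 278, 456 and 361 FPKM in wox5-1 and 479, 612 and 792 FPKM in Col-0. It fell in wox5-1, with -0.78 (SE 0.21, adjusted p = 0.0258), and in seu-3 the change of -0.55 (adjusted p = 0.0584) did not pass although the libraries did not overlap. AT2G37130 passed in seu-3 without Col-0 replicate 1 or wox5-1 replicates 1 or 2, each left out singly (adjusted p from 0.0257 to 0.0427). AT2G37130 lost its call in wox5-1 without Col-0 replicates 2 or 3 or wox5-1 replicates 1 or 3, each left out singly (adjusted p from 0.0517 to 0.0924).

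The near-identical neighbours AT4G37520 and AT4G37530 gave different calls. AT4G37530 was 139.7, 128 and 143 FPKM in seu-3, 72.3, 87.7 and 95.3 FPKM in wox5-1 and 114, 108 and 113 FPKM in Col-0, and AT4G37520 was 71.6, 58.5 and 67.6 FPKM in seu-3, 60.6, 71.5 and 75.6 FPKM in wox5-1 and 73.2, 72.7 and 97.2 FPKM in Col-0. AT4G37530 fell in wox5-1, with -0.40 (SE 0.11, adjusted p = 0.0285), and was higher in seu-3 than in wox5-1 by 0.69 (SE 0.11, adjusted p = 0.000485). AT4G37520 passed in 0 of the 3 comparisons, with -0.22 (adjusted p = 0.251) in wox5-1 and -0.069 (adjusted p = 0.684) between the mutants. AT4G37530 lost its call in wox5-1 without Col-0 replicates 1, 2 or 3 or wox5-1 replicate 1, each left out singly (adjusted p from 0.0657 to 0.0745). AT4G37530 passed in seu-3 without wox5-1 replicates 1 or 3, each left out singly (adjusted p from 0.0197 to 0.0478). The division of fragments between the pair is uncertain at a coding identity of 92.4%, with 8.82% of 50-base stretches shared.

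Of the 9 peroxidases grouped under defence and stress 7 were tested. In seu-3 3 fell and 4 did not pass, and in wox5-1 1 rose, 1 fell and 5 did not pass, Prx37 and AT5G64100 included. Of all tested genes 34.2% fell in seu-3, and in wox5-1 13.7% rose and 13.5% fell. PRXCB, which makes hydrogen peroxide in defence, was 43.5, 22.4 and 28.8 FPKM in seu-3, 26.3, 45.2 and 26.8 FPKM in wox5-1 and 44.8, 56.7 and 81.8 FPKM in Col-0. It fell in seu-3, with -0.94 (SE 0.30, adjusted p = 0.0309), and in wox5-1 the change of -0.88 (adjusted p = 0.0524) did not pass. PRXCB lost its call in seu-3 without Col-0 replicates 2 or 3 or seu-3 replicates 2 or 3, each left out singly (adjusted p from 0.0666 to 0.110). PRXCB passed in wox5-1 without seu-3 replicates 1 or 2 or wox5-1 replicate 2, each left out singly (adjusted p from 0.0288 to 0.0477). PER4 was 125, 86.0 and 86.6 FPKM in seu-3, 39.0, 73.9 and 45.6 FPKM in wox5-1 and 51.7, 94.5 and 102 FPKM in Col-0. Col-0 overlapped with both mutants, and only seu-3 against wox5-1 passed, at 0.93 (SE 0.30, adjusted p = 0.0201). PER4 lost its call in seu-3 against wox5-1 without seu-3 replicate 1 or wox5-1 replicates 1 or 3, each left out singly (adjusted p from 0.0581 to 0.0795). PER4 passed in wox5-1 without Col-0 replicate 1 (adjusted p = 0.0471). AT1G14550, its tandem neighbour, differed by 0.94 (adjusted p = 0.0555) in that comparison and did not pass. AT1G14550 passed in seu-3 against wox5-1 without Col-0 replicate 1 or wox5-1 replicate 2, each left out singly (adjusted p from 0.0157 to 0.0333).

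PRX71 (AT5G64120), which is induced by low osmolarity and acts on wall lignin, was 41.3, 32.2 and 38.7 FPKM in seu-3, 51.0, 86.3 and 55.5 FPKM in wox5-1 and 35.3, 50.8 and 98.6 FPKM in Col-0, with the widest range in Col-0. AT5G39580, annotated to defence against fungi, averaged 14.1 ± 5.71 FPKM in seu-3, 8.88 ± 4.05 FPKM in wox5-1 and 13.6 ± 7.61 FPKM in Col-0 (SD, n = 3 each). Neither passed in any comparison, with 95% intervals in seu-3 against Col-0 of -1.32 to 0.16 for PRX71 and -0.87 to 1.22 for AT5G39580. PRX71 passed in seu-3 without Col-0 replicate 1 (adjusted p = 0.0421). PRX71 passed in seu-3 against wox5-1 without Col-0 replicates 1 or 3, each left out singly (adjusted p from 0.0159 to 0.0371). AT4G36430 averaged 7.36 ± 2.99 FPKM in seu-3, 2.44 ± 1.90 FPKM in wox5-1 and 5.12 ± 0.757 FPKM in Col-0, and was higher in seu-3 than in wox5-1 by 1.38 (SE 0.39, adjusted p = 0.0112), a call that held in every alternative run. AT4G36430 passed in wox5-1 without wox5-1 replicate 2 (adjusted p = 0.0231).

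In the group of lignin and xylem 4 of 7 were tested. In seu-3 1 fell, in wox5-1 1 fell, and 0 of 4 passed between the mutants. Of all tested genes 34.2% fell in seu-3, 13.5% fell in wox5-1 and 64.5% passed between the mutants. The only member that passed was AT4G33420. It was 7.81, 2.78 and 4.16 FPKM in seu-3, 4.56, 6.503 and 4.73 FPKM in wox5-1 and 7.56, 12.8 and 12.7 FPKM in Col-0. It fell in seu-3, with -1.08 (SE 0.30, adjusted p = 0.0194), although seu-3 replicate 1 lay above Col-0 replicate 1, and in wox5-1, with -0.92 (SE 0.30, adjusted p = 0.0486). AT4G33420 lost its call in seu-3 without Col-0 replicates 2 or 3 or seu-3 replicates 2 or 3, each left out singly (adjusted p from 0.0533 to 0.0669). AT4G33420 lost its call in wox5-1 without Col-0 replicates 2 or 3 or wox5-1 replicates 1, 2 or 3, each left out singly (adjusted p from 0.0532 to 0.153). AT5G51890, of tracheary elements, averaged 14.2 ± 6.08 FPKM in seu-3, 12.8 ± 3.91 FPKM in wox5-1 and 17.0 ± 2.93 FPKM in Col-0, and AT2G22420 averaged 4.38 ± 1.22 FPKM in seu-3, 5.79 ± 1.64 FPKM in wox5-1 and 6.01 ± 0.912 FPKM in Col-0. PRX25 (AT2G41480) and PRX52 (AT5G05340) were below the limit for testing, at no more than 0.336 and 1.15 FPKM. Xylem markers outside the family, of which 6 of 8 were tested, passed in 0 of the 3 comparisons. Of all tested genes 40.8% passed in seu-3, 27.3% in wox5-1 and 64.5% between the mutants. Without seu-3 replicate 1, 1 xylem marker was lower in seu-3 than in Col-0. Without seu-3 replicate 2, 1 was lower in seu-3 than in wox5-1. Among the xylem markers 0 were at 0 in all libraries. Their sums were 31.4 to 51.5 FPKM in seu-3, 38.7 to 53.4 FPKM in wox5-1 and 44.0 to 55.6 FPKM in Col-0. AT3G21770 and AT2G18150, outside these groups, also passed in 0 of the 3 comparisons, as did PRX2.

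The family has 13 genes outside the list, and 2 of them were tested. AT5G24070 averaged 78.8 ± 10.03 FPKM in seu-3, 45.5 ± 6.51 FPKM in wox5-1 and 98.1 ± 8.15 FPKM in Col-0. It fell in wox5-1, with -1.10 (SE 0.13, adjusted p = 0.00145), and not past the threshold in seu-3, with -0.32 (adjusted p = 0.0828). AT2G43480 averaged 2.29 ± 0.161 FPKM in seu-3, 6.88 ± 0.350 FPKM in wox5-1 and 5.27 ± 1.25 FPKM in Col-0, and fell in seu-3 with -0.91 (SE 0.15, adjusted p = 0.00379). Without Col-0 replicate 1 it also rose in wox5-1 (adjusted p = 0.0460).

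Enzymes that work beside the peroxidases were followed too. RBOH oxidases make the superoxide from which hydrogen peroxide forms. Of 8 tested, 3 fell in seu-3 (against 34.2% of all tested genes) and 4 fell in wox5-1 (against 13.5%). In seu-3 against wox5-1, 5 were higher (against 19.9%). With median-ratio scaling 1 was lower and 3 were higher in seu-3 than in Col-0, and 8 of 8 were higher in seu-3 than in wox5-1. As deposited, those higher in seu-3 than in wox5-1 numbered 2 without seu-3 replicate 1 or wox5-1 replicate 1, and 1 was higher in seu-3 than in Col-0 without wox5-1 replicate 1 or wox5-1 replicate 3. RBOHA averaged 2.66 ± 0.568 FPKM in seu-3, 1.74 ± 0.586 FPKM in wox5-1 and 5.21 ± 0.416 FPKM in Col-0. It fell in both, with -0.77 in seu-3 (adjusted p = 0.0113) and -1.20 in wox5-1 (adjusted p = 0.00386).

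Laccases are the other enzymes that oxidise monolignols. Of 11 tested, 1 rose in seu-3 (against 6.66% of all tested genes) and 5 fell in wox5-1 (against 13.5%). In seu-3 against wox5-1, 6 were higher (against 19.9%). LAC7 averaged 28.3 ± 4.73 FPKM in seu-3, 10.5 ± 4.55 FPKM in wox5-1 and 31.3 ± 5.75 FPKM in Col-0, and fell in wox5-1 with -1.55 (adjusted p = 0.00459). LAC8 averaged 233 ± 31.4 FPKM in seu-3, 131 ± 16.4 FPKM in wox5-1 and 145 ± 23.6 FPKM in Col-0, and rose in seu-3 by 0.68 (adjusted p = 0.00768). The laccases lower in wox5-1 numbered 2 without Col-0 replicate 2, and 3 without Col-0 replicate 1 or Col-0 replicate 3. Those higher in seu-3 numbered 2 without wox5-1 replicate 1 and 3 with median-ratio scaling. Catalases and cytosolic ascorbate peroxidases, which remove hydrogen peroxide, had 1 of 4 higher and 1 of 4 lower in seu-3 and 0 of 4 called in wox5-1. Of all tested genes 6.66% were higher and 34.2% lower in seu-3, and 27.3% were called in wox5-1. In seu-3 against wox5-1, 2 of 4 were higher (against 19.9%) and 1 was lower (against 44.6%). Without wox5-1 replicate 3 only 1 was higher in that comparison. The genes called in seu-3 were CAT2 at 0.29 (adjusted p = 0.0485) and CAT3 at -0.44 (adjusted p = 0.0424). With median-ratio scaling CAT3 did not pass, at -0.22 (adjusted p = 0.263), and 2 of 4 were higher and 0 lower in seu-3. Neither call held without any single seu-3 library, without replicate 3 of wox5-1, or without replicates 1 or 3 of Col-0, each left out singly. Without Col-0 replicate 2 only that of CAT3 held, and without wox5-1 replicate 2 only that of CAT2. The 5 genes of this list summed to 2387 to 2456 FPKM in seu-3, 1723 to 1985 FPKM in wox5-1 and 1798 to 2188 FPKM in Col-0.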

How the data were processed

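RNA was sequenced from root tips of 3 genotypes with 3 libraries each. The authors' deposited values are FPKM per gene identifier. Per the submitters' processing notes, Bowtie, Cufflinks and the TAIR10 build were used. Parameters, strandedness and the handling of fragments shared between copies are not given in the sources used here. FPKM are relative to each library's total and are not counts, so no count model was used, and a shift of many transcripts can move the others. The depth was estimated from the smallest steps of low values and is approximate.

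From these values, log2(FPKM + 1) was fitted with limma 3.58.1 in R 4.3.3 over all 9 libraries, with genotype as the only factor and an intensity trend in the variance. The fit took the 17062 of 33560 identifiers whose mean reached 1 FPKM, and p-values were adjusted over all of them by Benjamini-Hochberg, with a call below 0.05. The fit was tested on simulated data with independent noise and as many rises as falls. Those data held no shift of many transcripts and no RNA of other tissues. The simulation therefore cannot show how such effects bear on the calls. Alternatives were a pseudocount of 0.1, no filter, a filter at 5 FPKM, median-ratio scaling, quantile normalization, a replicate block, no trend, only the 6 libraries compared, and leaving out each library.

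The members, their role groups and the lists of other genes were chosen with earlier results of these data known. Members were named by role group: in full, the 10 with the largest called changes per comparison, up to 3 per group by p-value, those called in opposite directions in both mutants, and the 5 most abundant. Intervals are 95% intervals of the fit. Annotation and sequences come from RefSeq on TAIR10.1. Near-identical copies were found by global alignment of coding sequences, where a protein alignment had been planned. Figures were drawn with matplotlib 3.10.9.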

Additional observations from a re-analysis of the deposited data

How the results depend on the processing

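Of the calls against Col-0, 5 of 16 in seu-3 and 5 of 17 in wox5-1 held in every alternative that could be run, as did 16 of 23 in seu-3 against wox5-1; members under 5 FPKM have no value with the stricter filter, which ended no other call. No called change reversed its sign. The number called in wox5-1 was 11 with no filter on low values and ranged from 5 to 18 with each library left out. In seu-3 it was 9 with quantile normalization and ranged from 8 to 19, and in seu-3 against wox5-1 it ranged from 20 to 25. Mean family sums were 15896 FPKM in seu-3 and 12471 FPKM in Col-0 with median-ratio scaling, and 13752 FPKM in Col-0 with quantile normalization. No filter ended 4 calls in seu-3 (PRXCB, AT5G06730, AT5G17820 and PRX72), 6 in wox5-1 (AT1G44970, AT2G38390, Prx37, PRXR1, AT4G33420 and PER64) and 2 between the mutants (AT1G71695 and RHS19). The pseudocount of 0.1 ended 1 in seu-3 (AT5G06730) and 3 in wox5-1 (AT2G38390, Prx37 and AT4G33420). Quantile normalization ended 8 in seu-3, AT2G38390 among them (adjusted p = 0.0941), and 4 between the mutants. No trend ended 1 in seu-3 and 2 in wox5-1, and the 6 libraries alone ended 2 in seu-3 and 1 between the mutants. Against Col-0, rises in seu-3 numbered 7 with the 6 libraries alone, and rises in wox5-1 numbered 1 with no filter and 2 with the pseudocount of 0.1. Deviations from the genotype means correlated from -0.26 to 0.19 over the 9 pairs of libraries with the same replicate number. Over the 18 other pairs the correlations were -0.36 to 0.35. Whether libraries of the same number share a planting or batch is not stated, and these correlations cannot decide it. With a replicate block 14 members were called in seu-3, 12 in wox5-1 and 22 between the mutants. Of the changes that had not passed, only a selection was checked for a reversal of sign, mostly those printed above. The others were not checked and may have reversed too. Within that selection the reversals were as follows. With median-ratio scaling, the seu-3 change was 0.17 for RCI3, 0.091 for AT1G44970, 0.27 for AT4G16270 and 0.086 for AT5G15180, the wox5-1 change of RCI3 was -0.012, and seu-3 minus wox5-1 was 0.25 for AT4G37520. With quantile normalization, it was -0.17 for AT3G01190 and 0.14 for AT4G16270 in seu-3, -0.15 for RCI3 in wox5-1, and 0.048 for AT4G37520 in seu-3 minus wox5-1. With a library left out, the seu-3 change ranged from -0.29 to 0.031 for RCI3, from -0.28 to 0.20 for AT4G16270 and from -0.39 to 0.49 for AT5G39580. The wox5-1 change ranged from -0.0026 to 0.043 for RCI3 and from -0.076 to 0.043 for AT4G16270, and seu-3 minus wox5-1 from -0.16 to 0.014 for AT4G37520. The causes were not tested. With 3 libraries per genotype and about 7700000 to 14300000 fragments each, values well below 1 FPKM rest on few fragments.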
